A study of Mus musculus with 24 samples.

Results

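The comparison described here is the retinoic acid (RA) differentiation of mouse CGR8 embryonic stem cells (ESCs) in which Rsl24d1 was depleted by siRNA and supplied again from a transgene. It holds the 3 libraries labelled DIF_siRSL24D1_RESCUE, taken at day 4 of 10 nM RA, and the 3 labelled ESC_siRSL24D1_RESCUE, taken at day 0, chosen by their titles and together 6 of the 24 RNA-seq libraries of the series. The series has 8 groups of 3 libraries, which cross the day (0 or 4), the rescue (with or without doxycycline) and the siRNA (si-CTL or si-Rsl24d1). All 6 libraries received si-Rsl24d1 and doxycycline, which induced an Rsl24d1 open reading frame integrated with a piggyBac vector. The labels give serum with LIF and doxycycline at day 0, and serum with RA and doxycycline at day 4. The rescued cells are labelled RSL24D1_OE and the cells without doxycycline empty_vector. The rescued si-CTL cells, which carry the control siRNA with the same induction, and the unrescued si-Rsl24d1 cells are used below only to ask where the day effect of the rescued si-Rsl24d1 cells differed. The sources disagree on the library kit (stranded total RNA in the study's methods, poly-A in the labels), on whether LIF was kept during RA treatment, and on the time of collection after transfection (72 h or 48 h). The addition of RA, the change of LIF and the time since transfection move together between the days and cannot be told apart.

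RSL24D1 is a factor that joins the precursor of the large ribosomal subunit and is later exchanged for the ribosomal protein RPL24. In ESCs, OCT4 (Pou5f1), SOX2 and NANOG hold the pluripotent state, and LIF supports its naive form through STAT3. RA binds the nuclear receptors RAR and RXR, which act on response elements in genes such as Rarb, Cyp26a1 and the Hox genes, and it steers ESCs towards neural and extraembryonic endoderm fates depending on dose and context.

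The deposited level of a gene is log2(TPM + 1), where TPM is its share of all transcripts scaled to a common sum, so read numbers and depth are unknown and the 3 libraries per group set the precision. Changes are differences of mean level, called log2 fold changes here, and they understate the change of genes at low levels. A gene was called when its change passed 1.8-fold (0.848 on the log2 scale) with an adjusted p under 0.01 in limma, by the Benjamini-Hochberg method, and "rose" and "fell" are used for called genes alone. Of 16447 genes tested, 2452 were called (14.9%), 1536 higher at day 4 (9.34%) and 916 lower (5.57%), and the median log2 fold change over all tested genes was 0.06. Counts of list members called between the days are to be set against these shares. The 3 libraries of 1 day lay wholly above those of the other for 11545 genes (70.2%), so separation of the 6 libraries alone says little about a gene. Libraries of the same day were 40.5 to 42.1 apart in Euclidean distance over tested genes, and libraries of different days 91.3 to 95.4. Mitochondrial transcripts made up 6.47% to 7.64% of TPM at day 0 and 8.79% to 9.29% at day 4, and their part in the results was not tested.

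Rsl24d1 itself (chromosome 9, 73113426 to 73123333, plus strand, GRCm38), the target of the siRNA, had levels of 6.70, 6.60 and 6.94 at day 0 and 7.07, 7.05 and 7.00 at day 4. All day 4 libraries were above all day 0 libraries, but the change of 0.29 (SE 0.07, adjusted p = 1.0e-03, limma) was below the fold threshold and was not called. The day effect was 1.39 without rescue and -0.36 in rescued si-CTL cells. Its difference from the unrescued si-Rsl24d1 cells was -1.10 (SE 0.10, adjusted p = 1.2e-06, limma) and was called, whereas that from the rescued si-CTL cells, 0.65, was not. The symbol does not separate transcripts of the gene from those of the transgene, and a protein-coding gene model on the same strand, Gm20509, overlaps it.

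**Figure D1:**
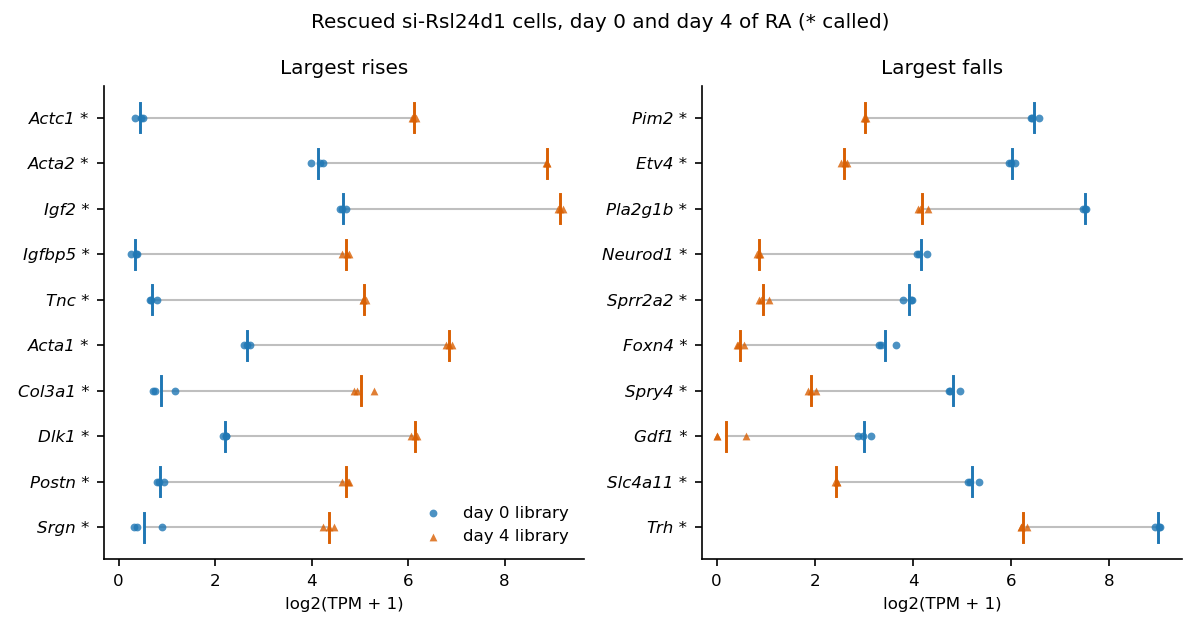
Level, log2(TPM + 1), of the 10 protein-coding genes that rose most and the 10 that fell most in rescued si-Rsl24d1 cells, with 1 point per library (3 per day) and a bar at each mean. Day 0 and day 4 do not overlap for any of the 20 genes, from Actc1 (log2 fold change 5.68) to Pim2 (-3.44).

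The largest rises among protein-coding genes were in genes of the contractile cytoskeleton, secreted growth regulators and the extracellular matrix. Actc1, the cardiac alpha-actin, was at 0.35, 0.47 and 0.50 at day 0 and at 6.08, 6.17 and 6.11 at day 4. This is a log2 fold change of 5.68 (SE 0.12, adjusted p = 2.9e-18, limma), 51.1-fold on the scale of TPM + 1. Acta2, the smooth muscle alpha-actin, rose by 4.74 from 3.99, 4.18 and 4.25 to 8.89, 8.86 and 8.88, and Acta1, the skeletal alpha-actin, by 4.18. Of 23 contractile genes tested (25 listed), 16 were called higher and none lower, with a median of 1.28, against 9.34% of all genes called higher and an overall median of 0.06. The summed TPM of the list went from 1149 to 1262 at day 0 to 3151 to 3246 at day 4. Myl9, a myosin light chain, rose by 3.10, Tagln, an actin-binding protein of smooth muscle, by 2.04, and Actg2, the enteric smooth muscle actin, by 1.47. In counts over tested members, a gene that is low on 1 day may have passed the filter on low values through the other day, so such counts are descriptions.

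Promoters of contractile genes were searched for the CArG box, the site bound by serum response factor, in the RefSeq windows of GRCm38.p6, which run from 250 bases before to 50 after each start. On either strand it was found in 6 of the 21 contractile genes with a promoter, 4 of them called higher, and in 1.63% of all 32851 promoters. Another 9 contractile genes without it were also called higher, and a match describes letters only. The list was counted in genes and the background in promoter windows, of which a gene may have several, so the shares are in unlike units. The 3 promoters with the box among called genes with the largest rise are shown 5′ to 3′ on the gene's strand, with the box in capitals, at chr2:114052826-114053125 (minus strand, Actc1), chr8:123894726-123895025 (minus strand, Acta1) and chr2:156775214-156775513 (plus strand, Myl9). The box begins 47, 73 and 161 bases before the start of Actc1, Acta1 and Myl9.
Actc1: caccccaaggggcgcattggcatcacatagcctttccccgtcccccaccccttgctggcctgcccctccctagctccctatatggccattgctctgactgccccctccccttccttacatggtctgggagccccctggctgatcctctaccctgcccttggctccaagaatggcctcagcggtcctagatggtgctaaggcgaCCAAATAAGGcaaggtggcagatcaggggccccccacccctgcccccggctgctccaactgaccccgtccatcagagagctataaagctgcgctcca
Acta1: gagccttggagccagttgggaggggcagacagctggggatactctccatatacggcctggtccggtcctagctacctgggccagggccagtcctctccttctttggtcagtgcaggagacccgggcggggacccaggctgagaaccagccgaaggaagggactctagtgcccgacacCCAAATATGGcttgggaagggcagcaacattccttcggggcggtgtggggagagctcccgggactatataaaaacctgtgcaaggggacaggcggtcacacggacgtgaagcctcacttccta
Myl9: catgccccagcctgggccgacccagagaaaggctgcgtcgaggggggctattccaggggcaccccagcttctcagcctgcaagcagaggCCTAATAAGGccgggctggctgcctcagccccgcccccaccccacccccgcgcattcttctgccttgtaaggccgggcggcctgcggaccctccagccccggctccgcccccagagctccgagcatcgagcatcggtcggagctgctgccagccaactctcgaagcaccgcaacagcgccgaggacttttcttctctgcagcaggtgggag

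Many genes of collagens, other matrix proteins and the mesenchymal state rose as well. Among 25 collagens and laminins tested, 14 were called higher and none lower (median 0.92), including Col3a1 (4.16), Col12a1 (3.25), Col1a2 (2.94) and Col1a1 (2.60). Tnc, the matrix glycoprotein tenascin C, rose by 4.38 from levels of 0.64 to 0.79 to levels of 5.06 to 5.12. Postn, which encodes periostin, rose by 3.85, and Srgn, a proteoglycan core protein, by 3.81. Of 24 mesenchymal genes, 13 were called higher and 1 lower (median 0.91), with rises of Tgfbi (2.89), Tgfb2 (2.26), the homeobox gene Prrx1 (1.74) and Fn1, fibronectin (1.22), and a fall of the surface antigen Thy1 (-1.19). Of 18 epithelial adhesion genes, 1 was called higher and 2 lower (median -0.23), where 9.34% and 5.57% of all tested genes were. Cdh1, the E-cadherin gene, was at a log2 fold change of -0.70, not called.

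Fibroblast markers moved the same way. Their list shares members with the collagen and mesenchymal lists, among them Col3a1, Col1a1 and Thy1, so the lists are not independent. Of 8 tested (10 listed), 6 were called higher and 1 lower, and the summed TPM of the list was 19.4 to 24.1 at day 0 and 131 to 145 at day 4. Dcn, which encodes decorin, was at 0.00, 0.10 and 0.15 at day 0 and at 1.86, 2.04 and 2.05 at day 4. Lum, which encodes lumican, was listed at 0 in all 3 day 0 libraries and was at 0.16, 0.11 and 0.24 at day 4, too low to be tested. In bulk samples, more cells of a type and more RNA per cell cannot be told apart, and the part of such cells in the rises of actins and collagens was not tested.

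The RA pathway moved in both directions. Of 27 genes tested (28 listed), 11 were called higher and 4 lower, with a median of 0.49. The largest rises were in the homeobox genes Meis2, at 0.95, 1.00 and 0.67 at day 0 and 4.54, 4.52 and 4.53 at day 4 (log2 fold change 3.66, SE 0.09, adjusted p = 3.8e-17, limma), and Meis1 (3.08). Stra8, a gene of meiotic entry, rose by 1.90. Tgm2, a transglutaminase, rose by 1.84, Cyp26b1, which degrades RA, by 1.38, and Crabp2, which carries RA to the nucleus, by 1.30. Among the receptors, Rxra rose by 0.93, whereas Rarg fell by 2.20, Rxrg by 1.02 and Rara by 0.96. Rarg was at 6.51, 6.45 and 6.63 at day 0 and 4.40, 4.31 and 4.26 at day 4, with no overlap. Aldh1a3, which makes RA, fell by 1.21.

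Several genes often used as readouts of RA were not called. Cyp26a1, the main RA hydroxylase of early embryos, was at 1.26, 1.31 and 1.38 at day 0 and 1.46, 1.33 and 1.51 at day 4, with overlapping days (0.12, SE 0.12, adjusted p = 0.39, limma). Rarb, a receptor with a well-known response element, was at 0.13, 0.49 and 0.30 and then at 0.68, 0.66 and 0.79 (0.40, adjusted p = 9.1e-04, limma), below the fold threshold, and it passed at 1.20 when 0.1 instead of 1 was added to TPM. Dhrs3, a retinaldehyde reductase, was at 0.03 and Crabp1, a cytoplasmic RA-binding protein, at 0.74.

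Rarb and Cyp26a1 were the RA genes whose promoter windows held the DR5 element. It was searched on both strands as a direct repeat of the receptor site AGGTCA or its close variants, spaced by 5 bases, and it is present in 2 of 20 RA genes with a promoter and in 0.0974% of all promoters. Of the RA genes with a promoter but without the element, 7 were called higher. Here too, the list was counted in genes and the background in promoter windows. The element is in capitals in the promoters at chr14:16575427-16575726 (minus strand, Rarb) and chr19:37697558-37697857 (plus strand, Cyp26a1), and begins 53 and 32 bases before the start. Both are shown because RA receptors are known to bind there, while neither gene was called.
Rarb: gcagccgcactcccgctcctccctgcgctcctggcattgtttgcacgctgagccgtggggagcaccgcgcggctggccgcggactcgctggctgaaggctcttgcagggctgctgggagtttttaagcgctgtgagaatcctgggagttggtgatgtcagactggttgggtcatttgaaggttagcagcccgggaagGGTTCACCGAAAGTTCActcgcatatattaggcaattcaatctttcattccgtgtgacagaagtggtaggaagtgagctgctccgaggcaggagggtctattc
Cyp26a1: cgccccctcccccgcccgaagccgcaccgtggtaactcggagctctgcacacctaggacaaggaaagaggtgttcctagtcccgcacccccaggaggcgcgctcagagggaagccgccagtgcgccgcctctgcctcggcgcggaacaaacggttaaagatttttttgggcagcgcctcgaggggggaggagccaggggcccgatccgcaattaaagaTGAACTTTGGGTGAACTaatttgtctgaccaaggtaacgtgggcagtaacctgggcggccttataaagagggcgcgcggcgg

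Hox genes, which pattern the body axis, were low in both states, with a summed TPM over 39 genes of 6.97 to 8.28 at day 0 and 25.5 to 26.6 at day 4. The filter left 10 of them, and 6 were called higher and none lower, but 2 were called higher with 2 added to TPM and 1 with a filter at a mean level of 1.5. Hoxb2 was at 0.21, 0.09 and 0.23 and then at 2.32, 2.10 and 2.15, a rise of 2.01. Hoxa3 rose by 1.34 and Hoxb4 by 1.17. The called Hox genes belong to anterior and central paralogue groups, while Hoxd13 (0.04) and Hoxb9 (0.11) were not called.

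**Figure D2:**
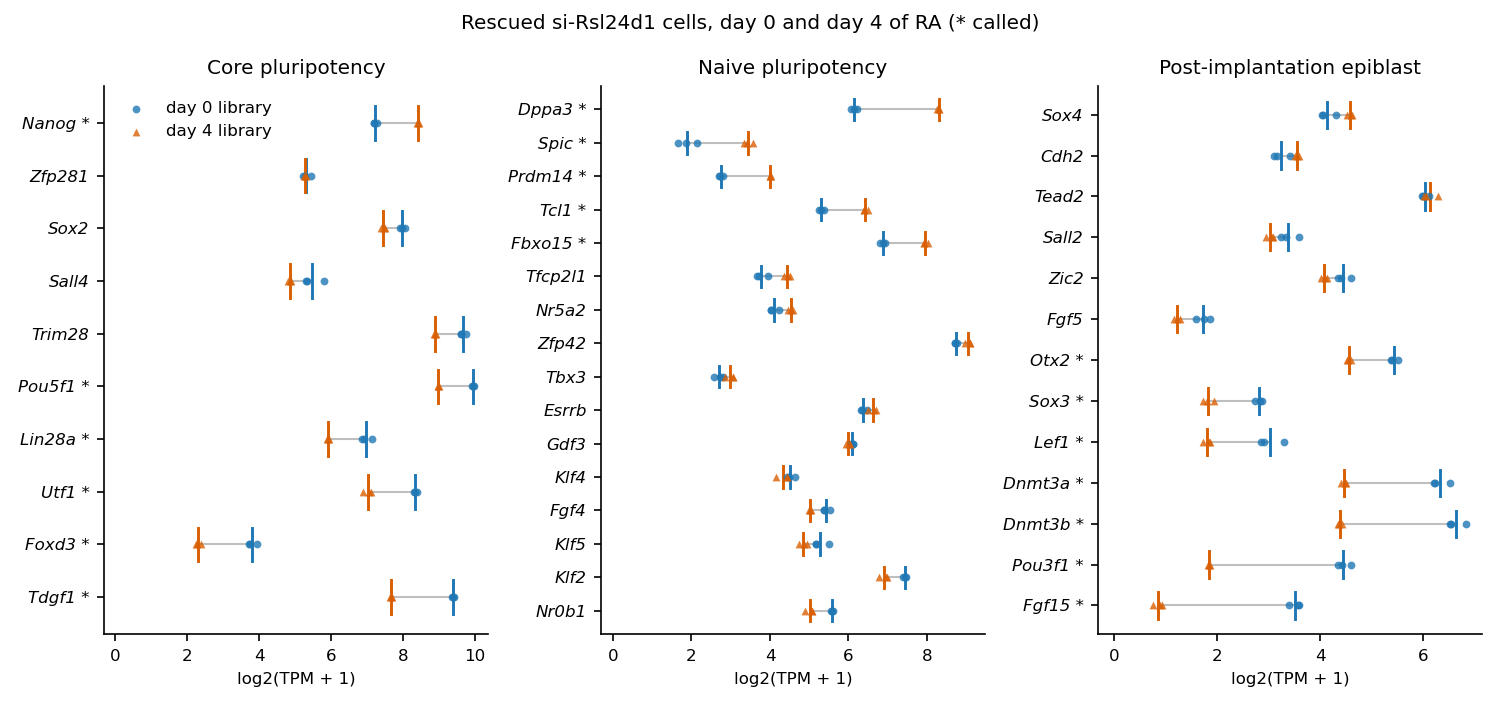
Level, log2(TPM + 1), of core, naive and post-implantation pluripotency genes in the 3 day 0 and 3 day 4 libraries of rescued si-Rsl24d1 cells, with 1 point per library. Nanog and Dppa3 are higher at day 4, while Pou5f1, Tdgf1, Fgf15 and Dnmt3b are lower.

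The ESC markers fixed for the check of the label stayed abundant at day 4. Pou5f1 was at 9.93, 9.91 and 9.96 at day 0 and at 9.00, 8.96 and 8.96 at day 4, a fall of 0.96 (SE 0.04, adjusted p = 2.6e-14, limma). Sox2 was at -0.53, not called, and Nanog rose by 1.20, from 7.20, 7.19 and 7.27 to 8.44, 8.42 and 8.39 (SE 0.04, adjusted p = 1.0e-15, limma). Of the 10 core genes, 5 fell and 1 rose (median -0.86), with falls of Tdgf1, a NODAL co-receptor (-1.72), Foxd3 (-1.50), Utf1 (-1.31) and the RNA-binding gene Lin28a (-1.05).

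Of 16 naive pluripotency genes, 5 were called higher and none lower (median 0.31). Dppa3, a maternal factor that protects from DNA methylation, rose by 2.15, from levels of 6.07 to 6.22 to levels of 8.26 to 8.32. Spic, an ETS factor, rose by 1.56 and Prdm14, a repressor active in naive and germ cells, by 1.27. The log2 fold changes of Zfp42 (0.32), Esrrb (0.24) and Klf4 (-0.18) were not called. Genes of the post-implantation epiblast went the other way, with 7 of 13 called lower and none higher (median -0.87). Fgf15 was at 3.40, 3.57 and 3.59 and then at 0.76, 0.93 and 0.90, a fall of 2.66. Pou3f1 (OCT6) fell by 2.61 and Dnmt3b by 2.25. Otx2 fell by 0.87, and its call was lost without the third day 0 library (-0.83).

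DNA methylation genes included 4 of 15 called lower and none higher (median -0.54). The de novo methyltransferase genes Dnmt3b and Dnmt3a fell by 2.25 and 1.86, and Gadd45g, a stress-response gene linked to demethylation, by 1.48. Dnmt3l, their cofactor, was at -0.79 (called under median of ratios scaling, -0.86) and Dnmt1, which maintains methylation, at -0.46, not called. Among 28 Polycomb genes, 4 were called higher and 1 lower (median 0.13), or 4 and 2 under median of ratios scaling. Over all tested genes, 9.34% were called higher and 5.57% lower. The PRC2 subunits Ezh2 (0.13), Eed (-0.42) and Suz12 (0.41) were not called. Epop, a PRC2-associated factor, fell by 1.55.

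Primitive streak and mesoderm genes fell or were not called. Of 14 tested (21 listed), 5 were called lower and none higher (median -0.60). T (Brachyury) was at 2.91, 2.87 and 2.91 and then at 0.49, 0.37 and 0.62, a fall of 2.40. The WNT ligand genes Wnt8a and Wnt3 fell by 2.29 and 1.59, and Mixl1, a mesendoderm homeobox gene, was at -0.64, not called unless 0.1 was added to TPM (-2.04).

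Several genes of signalling pathways active in the pluripotent state fell, while most members of their lists were not called. In the FGF and ERK list, 6 of 19 genes were called lower and none higher (median -0.50), led by the ETS factor gene Etv4, at 5.99, 5.96 and 6.07 and then 2.62, 2.65 and 2.54 (-3.40), and the feedback inhibitor Spry4 (-2.89). Fgf4 (-0.40) and Dusp6 (-0.50) were not called. In the Nodal and BMP list, 7 of 18 tested were called lower and 2 higher (median -0.33). Its ligands and inhibitors Nodal (-1.48) and Lefty1 (-2.02) fell, as did the BMP target Id1 (-2.30), while Nog, a BMP antagonist, rose by 2.47 and the ligand Bmp2 by 1.32. In the Wnt list, 6 of 21 tested were called lower and 2 higher (median -0.32), with a fall of the target Sp5 (-1.51), rises of the inhibitors Dkk1 (1.84) and Sfrp1 (0.89) and no call for Axin2 (-0.17). Sfrp1 was not called without the first day 0 library (0.84), with 2 added to TPM (0.80) or under median of ratios scaling (0.83), and the higher count of the list was then 1, as it was with a filter at a mean level of 1.5. In the LIF and STAT3 list, 3 of 13 were called lower and 2 higher (median -0.12). The STAT3 target Socs3 fell by 1.38 and Bcl3, an NF-kB cofactor, by 1.72, while the receptor gene Il6st (1.13) and the kinase gene Jak2 (1.23) rose.

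Other genes with large falls had varied roles. Pim2, a survival kinase, was at 6.43, 6.40 and 6.56 and then at 3.03, 3.05 and 3.00 (-3.44, SE 0.06, adjusted p = 2.8e-19, limma). Pla2g1b, a secreted phospholipase, fell by 3.32, Foxn4, a forkhead factor, by 2.97, and Trh, which encodes thyrotropin-releasing hormone, by 2.75. Gdf1, a ligand gene that overlaps Cers1 and Upf1, was listed at 0 in 2 of 3 day 4 libraries and fell by 2.80. Sprr2a2, at -2.98, has a near-identical neighbour, so the split of reads between the copies is uncertain. Of 31 cell cycle and Myc genes, 4 were called lower and 2 higher (median -0.14), where 5.57% and 9.34% of all tested genes were. Myc fell by 2.10, the cyclin gene Ccnd1 by 1.94 and Mycn by 1.57, and the cell cycle inhibitors Cdkn2a (1.16) and Cdkn2b (1.14) rose.

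**Figure D3:**
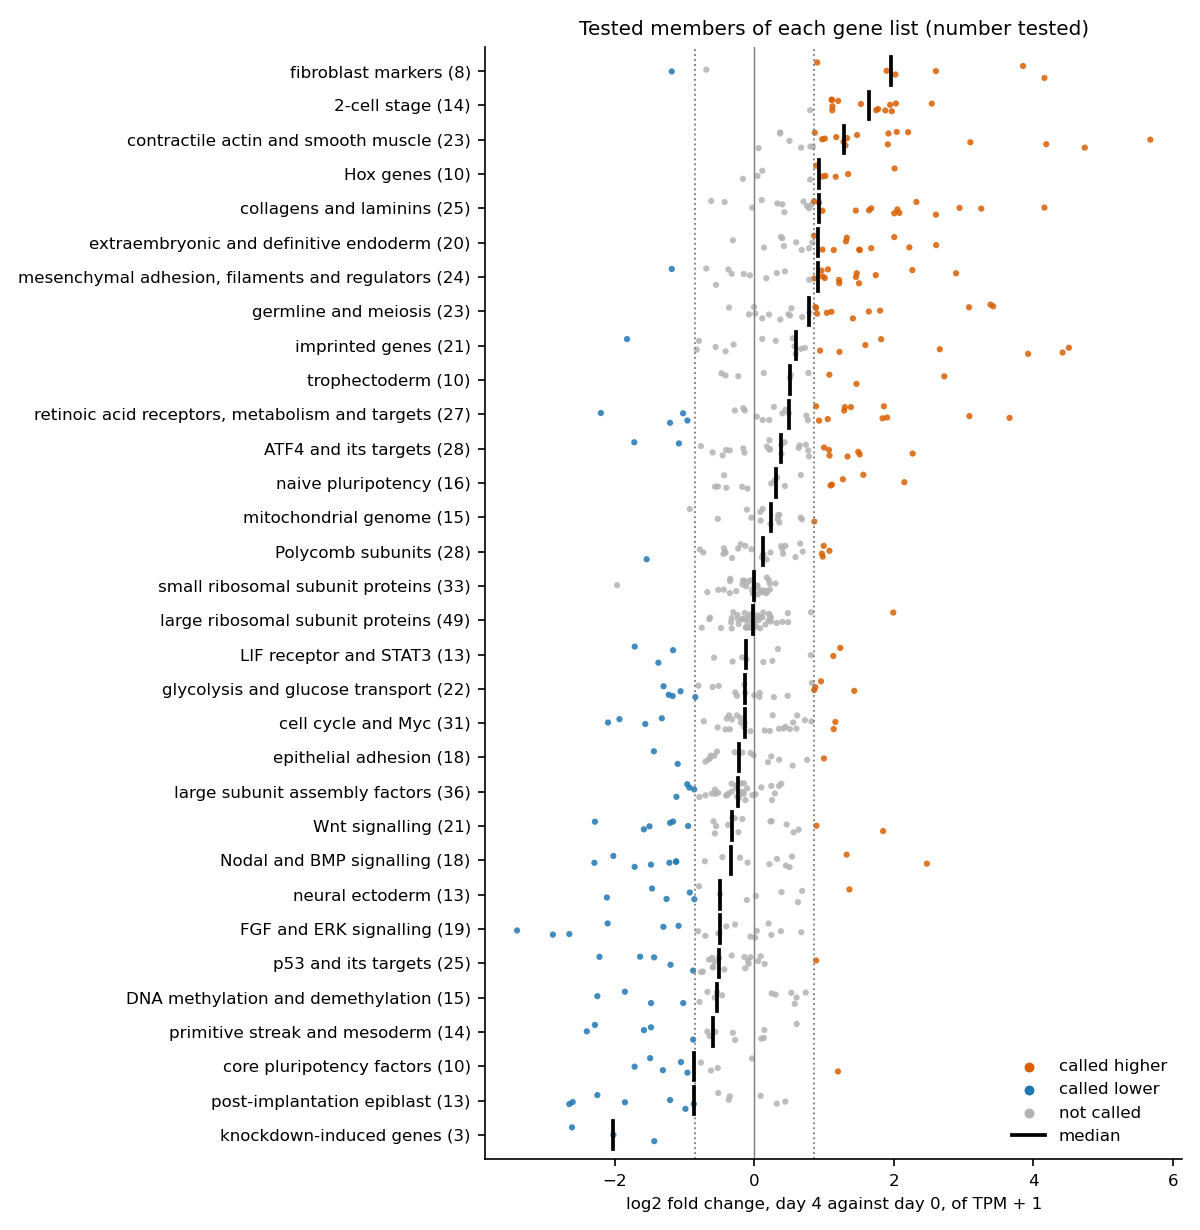
Log2 fold change, day 4 against day 0 in rescued si-Rsl24d1 cells, of every tested member of 32 gene lists, with 1 point per gene, a black mark at each median and dotted lines at 0.848 and -0.848. Medians are highest for fibroblast (1.96), 2-cell (1.64) and contractile (1.28) genes.

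Neural genes were mostly lower or not called. Of 13 tested (22 listed), 5 were called lower and 1 higher (median -0.50). Tubb3, a neuronal tubulin, was at 5.93, 5.91 and 5.98 and then at 4.55, 4.45 and 4.41 (-1.47), and Nkx2-9 fell by 2.12. Ncam1, an adhesion molecule, rose by 1.36. The neural progenitor genes Pax6 (0.68), Sox1 (0.39) and Nes (0.02) were not called.

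Of 20 genes of extraembryonic and definitive endoderm tested (26 listed), 11 were called higher and none lower (median 0.91), or 7 with a filter at a mean level of 1.5. Their summed TPM was 594 to 632 at day 0 and 977 to 1037 at day 4. The endocytic genes Cubn and Dab2 rose by 2.61 and 2.22, and Col4a2, a basement membrane collagen, by 2.00. Gata6 was at 0.41, 0.57 and 0.66 and then at 1.78, 1.79 and 2.05 (1.32), and Gata4 rose by 1.31. Sox17 was at 0.83, just under the threshold, was called without the second day 0 library (0.86), the second (0.89) or the third day 4 library (0.88), whereas Foxa2 did not pass the filter. Of 10 trophectoderm genes tested, 3 were called higher and none lower (median 0.51), namely the keratin gene Krt7 (2.72) and the GATA factor genes Gata3 (1.46) and Gata2 (1.07). The call of Gata2 was lost without the first day 4 (0.87) or the first day 0 library (0.89). Cdx2 (-0.42) and Hand1 (-0.23), which mark trophoblast, were not called, although Cdx2 was called lower with 0.1 added to TPM (-1.22).

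Genes of the germline, the 2-cell stage and imprinted domains also rose in part. Of 23 germline genes tested (24 listed), 11 were called higher and none lower (median 0.79). Dazl, an RNA-binding protein of germ cells, was at 2.75, 2.82 and 3.02 and then at 6.37, 6.19 and 6.30, a rise of 3.42 (SE 0.10, adjusted p = 2.8e-16, limma). The X-linked homeobox genes Rhox6 and Rhox9 rose by 3.38 and 3.08, while Sycp3, of the synaptonemal complex, was at -0.01. Of 14 genes of the 2-cell stage tested (17 listed), 13 were called higher and none lower (median 1.64), with Tmem92 at 2.54, Zscan4f at 2.03 and Zscan4c at 1.97. Zscan4f was at 3.88, 3.96 and 3.76 and then at 5.92, 5.84 and 5.93. The Zscan4 and Usp17l copies are near-identical, so their single values are uncertain and they are not independent.

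Of 21 imprinted genes tested (23 listed), 8 were called higher and 1 lower (median 0.59), or 8 higher and 3 lower under median of ratios scaling. Without the first day 0 or the third day 4 library, 2 were called lower. Igf2, a fetal growth factor, was at 4.60, 4.62 and 4.72 and then at 9.10, 9.20 and 9.15 (4.51, SE 0.08, adjusted p = 2.8e-19, limma), and H19, the noncoding RNA gene next to it, rose by 4.42. Dlk1, a NOTCH-related inhibitor of differentiation, rose by 3.92, and Meg3, of the same domain, was at 0.11, not called. Phlda2, which limits placental growth, fell by 1.83. Igfbp5, which binds insulin-like growth factors, rose by 4.38.

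Few genes of ribosomal proteins were called. Among 49 large subunit protein genes, 1 was called higher and none lower (median -0.02, or -0.09 under median of ratios scaling), and the one called, Rpl39l, a paralogue most active in the testis, rose by 1.99. The count was 2 without the first or second day 0 library or the first or second day 4 library. Rpl24, whose protein replaces RSL24D1, was at -0.10 and Rpl8 at -0.33, neither called. None of 33 small subunit protein genes was called in limma (median -0.01, or -0.08 under median of ratios scaling). Of these, 18 had an unadjusted p below 0.05 in limma, where 69.6% of all tested genes did. The days did not overlap for 18 of them, and for 70.2% of all tested genes. Rps27 was the lowest, at -1.97, with day 4 levels from 3.44 to 6.50. Of 36 assembly factors of the large subunit, 4 were called lower and none higher (median -0.24, or -0.31 under median of ratios scaling). Over all tested genes, 5.57% were called lower and 9.34% higher. Nle1 fell by 1.12, from levels of 6.25 to 6.33 to levels of 5.06 to 5.26, and Eif6, which keeps the subunits apart, was at -0.70, not called.

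The day effect of the rescued si-Rsl24d1 cells was then compared with that of the rescued si-CTL cells, which share the transgene and doxycycline but not the siRNA. The difference was called for 346 genes (2.10%), 103 higher (0.626%) and 243 lower (1.48%), with a median of -0.05 over all genes. Of the 243 lower, 115 fell in rescued si-Rsl24d1 cells, 126 were not called there and 177 were not called in rescued si-CTL cells. Of the 103 higher, 55 rose in rescued si-Rsl24d1 cells, while in rescued si-CTL cells 35 fell and 24 rose.

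**Figure D4:**
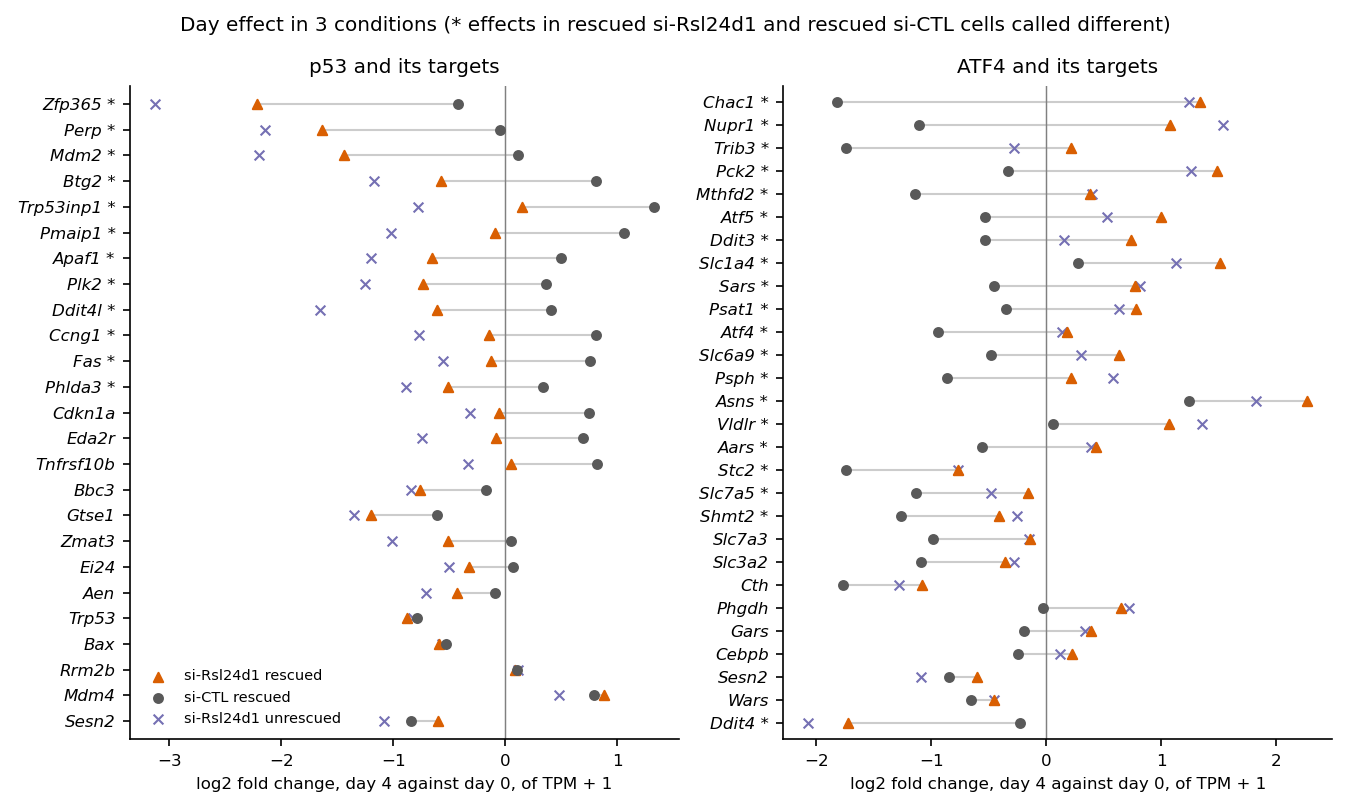
Log2 fold change, day 4 against day 0, of p53 and ATF4 genes in rescued si-Rsl24d1 (triangles), rescued si-CTL (circles) and unrescued si-Rsl24d1 cells (crosses), with a star where the rescued si-Rsl24d1 and rescued si-CTL effects were called different. Mdm2 is at -1.44, 0.11 and -2.20, and Chac1 at 1.33, -1.82 and 1.24, in that order.

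Targets of p53, the stress-activated tumour suppressor, included many with a lower day effect than in rescued si-CTL cells. Of 25 genes, 5 were called lower and 1 higher (median -0.51), and the difference from rescued si-CTL cells was called lower for 12 and higher for none (median -0.80). Mdm2, the p53 ubiquitin ligase gene (chromosome 10, 117688875 to 117710758, GRCm38), was at 8.08, 8.11 and 8.26 at day 0 and at 6.67, 6.77 and 6.70 at day 4 (-1.44). The difference from the day effect in rescued si-CTL cells was -1.55 (SE 0.08, adjusted p = 1.7e-10, limma). Its day 4 levels were close to those of the rescued si-CTL cells (6.64 ± 0.01, SD, n = 3), whose day 0 level was 6.53 ± 0.08. Zfp365, a genome stability gene, fell by 2.22 (difference -1.80) and Perp, an apoptosis effector, by 1.64 (difference -1.59). Trp53 fell by 0.88, a call lost without the third day 0 library (-0.84), with a difference of -0.09, not called. Cdkn1a, the p21 gene, was at -0.06 and its difference at -0.80, neither called. Mdm4, the 1 gene called higher, rose by 0.88, a call lost without the second day 0 library (0.84) and under median of ratios scaling (0.81).

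ATF4 targets, which serve amino acid supply and the integrated stress response, included many with a more positive day effect than in rescued si-CTL cells. Of 28 tested (30 listed), 7 were called higher and 2 lower (median 0.39), and the difference was called higher for 19 and lower for 1 (median 1.02). The list's median was -0.61 in rescued si-CTL cells. Chac1, which degrades glutathione, was at 2.18, 2.40 and 2.12 and then at 3.74, 3.62 and 3.34 (1.33), whereas it fell by 1.82 in rescued si-CTL cells, a difference of 3.16 (SE 0.27, adjusted p = 9.6e-08, limma). Asns, which makes asparagine, rose by 2.27 (difference 1.03), Slc1a4, a neutral amino acid transporter, by 1.51 (1.23), and Pck2, mitochondrial PEP carboxykinase, by 1.49 (1.82). In rescued si-CTL cells, Chac1 was at 4.51 to 4.63 at day 0 and at 2.35 to 3.22 at day 4. Asns was at 7.48 to 7.60 and then 8.64 to 8.90 there, against 6.69 to 6.85 and then 8.97 to 9.08 in rescued si-Rsl24d1 cells. Both genes thus started lower at day 0 in rescued si-Rsl24d1 cells. At day 4 both were higher there, without overlap with the rescued si-CTL libraries. Atf4 itself was at 0.18, not called, with a difference of 1.12, called. Ddit4, an inhibitor of mTORC1 that is also a p53 target, fell by 1.72 (difference -1.49).

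The promoters of ATF4 targets were searched on both strands for the C/EBP-ATF response element, TGATGCAA or its reverse complement TTGCATCA. It was found in 0.895% of all promoters, counted as windows. Counted as genes, 6 of 25 targets with a promoter held it, 4 of them called higher, and 3 genes called higher with a promoter lacked it. The 3 promoters with the element and the largest rise are shown because the day effect of their genes also differed from that in rescued si-CTL cells. They are given with the element in capitals, at chr11:20332664-20332963 (minus strand, Slc1a4), chr2:119350992-119351291 (plus strand, Chac1) and chr7:126625421-126625720 (minus strand, Nupr1). The element begins 4, 193 and 110 bases before the start of Slc1a4, Chac1 and Nupr1.
Slc1a4: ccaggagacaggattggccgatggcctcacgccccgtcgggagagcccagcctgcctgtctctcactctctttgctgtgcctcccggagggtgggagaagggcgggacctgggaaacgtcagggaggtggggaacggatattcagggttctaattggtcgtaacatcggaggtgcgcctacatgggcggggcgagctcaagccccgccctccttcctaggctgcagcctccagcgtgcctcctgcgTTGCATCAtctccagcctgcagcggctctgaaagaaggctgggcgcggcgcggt
Chac1: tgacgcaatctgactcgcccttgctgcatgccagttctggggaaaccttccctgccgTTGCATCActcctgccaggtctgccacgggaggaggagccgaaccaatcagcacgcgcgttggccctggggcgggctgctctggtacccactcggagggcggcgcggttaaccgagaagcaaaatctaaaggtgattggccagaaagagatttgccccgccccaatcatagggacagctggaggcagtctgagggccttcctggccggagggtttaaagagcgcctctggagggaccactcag
Nupr1: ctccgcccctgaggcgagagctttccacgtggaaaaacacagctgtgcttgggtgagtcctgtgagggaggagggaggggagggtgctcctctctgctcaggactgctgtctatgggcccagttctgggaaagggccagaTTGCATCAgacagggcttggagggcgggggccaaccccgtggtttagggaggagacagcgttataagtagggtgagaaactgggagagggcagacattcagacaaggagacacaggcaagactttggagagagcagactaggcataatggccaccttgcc

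Some contractile and matrix genes had a day effect that differed from that in rescued si-CTL cells, although most did not pass. The difference was called higher for 3 of 23 contractile genes (median 0.23), 2 of 25 collagens and laminins (median 0.15) and 1 of 24 mesenchymal genes (median 0.04), and lower for none of them. Actc1 rose by 4.07 there, a difference of 1.61 (SE 0.16, adjusted p = 8.4e-07, limma), and Acta2 by 3.62, a difference of 1.12. Tnc differed by 1.12, Prrx1 by 1.15 and Col1a1 by 1.01, all called. Genes of a short list chosen in these same samples as induced by the knockdown, and so no independent evidence of direction, fell here in 3 of 3 cases. They were Ltb4r2, a leukotriene receptor gene (-2.62), Cpz, a carboxypeptidase gene (-2.02), and Shisal2b (-1.44).

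Set against the unrescued si-Rsl24d1 cells, fewer differences were called. They numbered 115 (0.699%), 89 higher (0.541%) and 26 lower (0.158%), with a median of 0.05 over all genes. Of the calls, 77.4% were higher, or 67.0% (71 of 106) under median of ratios scaling. This comparison and the preceding one share the rescued si-Rsl24d1 libraries. By the labels, rescued and unrescued cells differ in doxycycline, in ectopic Rsl24d1 and in the vector, which cannot be told apart here. Of the p53 genes, 4 were called higher and none lower, including Zfp365, whose fall of 2.22 was smaller than the fall of 3.13 without rescue (difference 0.91, SE 0.14, adjusted p = 2.3e-04, limma). That call was lost without the first day 4 library of the unrescued cells (0.76) and under median of ratios scaling (0.84). The difference of Mdm2, 0.76 (adjusted p = 8.3e-06, limma), was below the fold threshold. Of the 25 p53 genes, 21 had an unadjusted p below 0.05 in limma, against 26.1% of all tested genes. No ATF4 gene was called in limma, 11 of 28 had an unadjusted p below 0.05, against 26.1% of all tested genes, and the differences of Chac1 (0.10) and Asns (0.44) missed the rule.

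Single genes differed more. Anxa8, a membrane-binding annexin gene, was at 0.17 here and at -1.19 without rescue, a difference of 1.36 (SE 0.09, adjusted p = 3.7e-08, limma). Cd55, a complement regulator gene, rose by 1.18 and was at -0.07 without rescue (difference 1.25). Dazl rose by 3.42 with and 2.34 without rescue (difference 1.08, SE 0.14, adjusted p = 4.4e-05, limma). Pla2g1b fell further with rescue (-3.32 and -2.23, difference -1.09). The 2-cell genes had a median difference of 0.69, with 2 called higher and none lower. Of the 14 tested, 14 had an unadjusted p below 0.05 in limma, against 26.1% of all tested genes. Actc1 (-0.40) and Acta2 (-0.08) were not called.

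**Figure D5:**
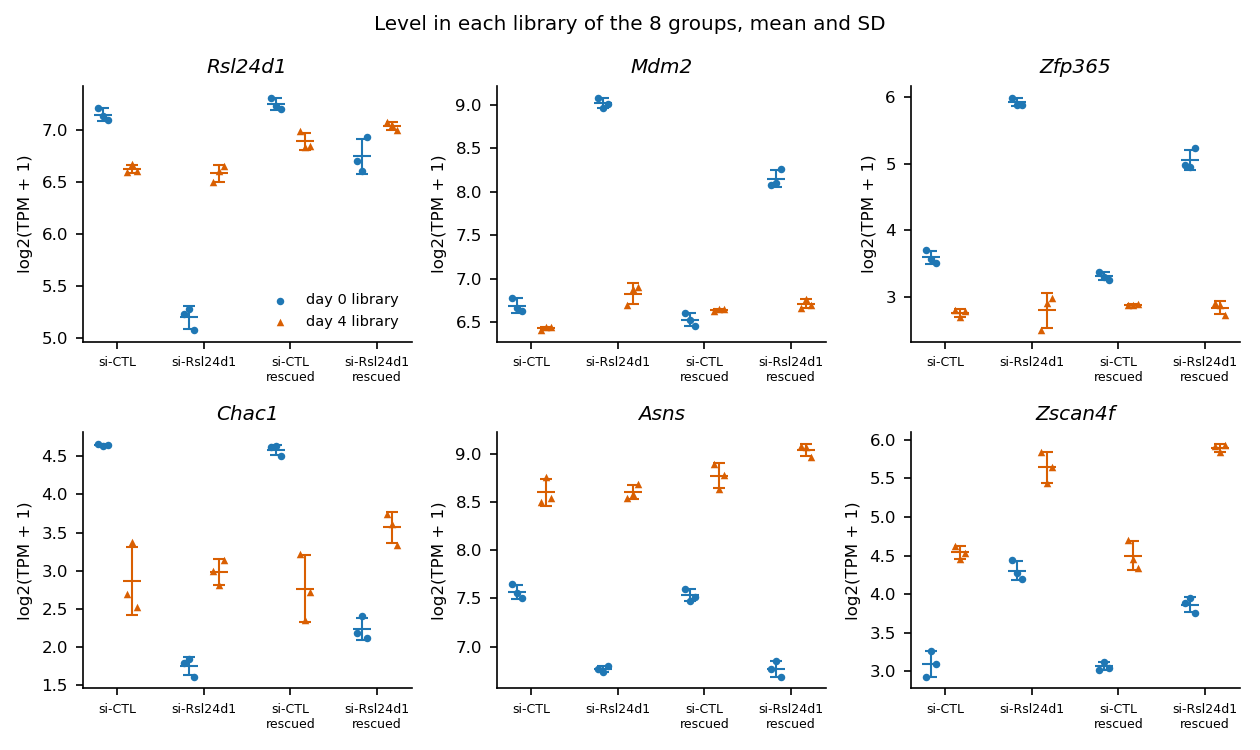
Level, log2(TPM + 1), of Rsl24d1, Mdm2, Zfp365, Chac1, Asns and Zscan4f in the 8 groups, with 1 point per library and mean ± SD (n = 3). At day 0 the mean of Mdm2 is 8.15 in rescued si-Rsl24d1 cells, between 6.53 in rescued si-CTL and 9.02 in unrescued si-Rsl24d1 cells. At day 4 all group means of Mdm2 lie between 6.43 and 6.83.

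The levels by group show at which day the conditions stood apart. Rsl24d1 at day 4 was at 6.50 to 6.65 in unrescued si-Rsl24d1 and 6.60 to 6.67 in unrescued si-CTL cells, which overlapped. In rescued cells at day 4 it was at 7.00 to 7.07 with si-Rsl24d1 and at 6.84 to 6.99 with si-CTL. At day 0, in contrast, every si-Rsl24d1 library lay below every si-CTL library, with and without rescue. For Mdm2 at day 0, the rescued si-Rsl24d1 cells lay between the rescued si-CTL cells and the unrescued si-Rsl24d1 cells (9.02 ± 0.06). At day 4 the group means of Mdm2 lay between 6.43 and 6.83, but si-Rsl24d1 and si-CTL libraries did not overlap. They were at 6.67 to 6.77 against 6.63 to 6.65 with rescue, and at 6.69 to 6.90 against 6.41 to 6.44 without. Chac1 at day 0 was 4.59 ± 0.07 in rescued si-CTL and 1.74 ± 0.12 in unrescued si-Rsl24d1 cells, with the rescued si-Rsl24d1 cells in between. Zscan4f was at 3.07 ± 0.05 in rescued si-CTL cells at day 0 and at 4.50 ± 0.19 at day 4, below the rescued si-Rsl24d1 cells on each day. With 3 libraries a group, an exact permutation test of 1 gene cannot give a p below 0.1. The limma p-values rest instead on each gene's spread pooled over the 8 groups, adjusted by information that limma shares between genes.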

How the data were processed

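RNA-seq was measured in 24 libraries, of which the 6 of rescued si-Rsl24d1 cells are described. The authors used Salmon and tximport to obtain TPM per gene, and the deposited values are log2(TPM + 1) in 1 table of 54242 symbols. Per the labels, STAR 2.7.8a, Salmon 1.4.0 and the build GRCh38 were used. The paper's methods name GRCm38, other versions of both tools and an index of protein-coding genes. Of the symbols in the deposited table, 21448 are protein-coding, so it holds more than such an index. The symbols are mouse, and 52259 match gencode vM21 (GRCm38), which gave coordinates. Groups were read from the titles. TPM keep no read numbers, so no count model and no counting interval could be used.

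limma 3.58.1 in R 4.3.3 was run on the 16447 genes whose mean level over the 24 libraries was 0.5 or more (a linear model of 8 groups with a trended prior, two-sided tests, Benjamini-Hochberg over all genes tested), after it had been tested on simulated data. Replicates are described as independent, and the main model did not pair libraries by their numbers. The paper, however, compared gene signatures of its biological replicates by paired t tests.

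Named genes are Rsl24d1, the 10 largest rises and falls and the 4 largest differences of each direction in each interaction among called protein-coding genes (for rises and falls, with days that did not overlap, and with no group at 0 throughout), and defining members and at most 3 called genes a direction of each list. Others, such as Rara and Tgm2, were named after their values were seen, and some items are not reported here. Members and lists were chosen with earlier results of these data known. Alternatives were another pseudocount, filter, scaling, sample set, replicate block or fold threshold, and leaving out libraries.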

Additional observations from a re-analysis of the deposited data

Results flagged for a closer look

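These genes were picked out because their day effect differed between conditions by the test of the difference itself (limma, interaction of day with siRNA or rescue). With 3 libraries a group, no search for single outlying libraries was made.

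Relative to rescued si-CTL cells, the day effect in rescued si-Rsl24d1 cells was more positive for Gm14308 (difference 4.39), Chac1 (3.16), Nupr1, a stress-response chromatin protein gene (2.18), and Trib3, a pseudokinase gene (1.95). Trib3 was at 0.21 in rescued si-Rsl24d1 cells and fell by 1.74 in rescued si-CTL cells. Gm14308 had an SE of 0.93, and its group SDs ranged up to 1.32. The day effect was more negative for Ltb4r2 (-2.32), Cpz (-2.27), Dcxr, a sugar reductase gene (-2.04), and Neurod1, a neuronal and endocrine bHLH factor gene (-2.02). Dcxr was at -0.74 here, not called, and rose by 1.31 in rescued si-CTL cells. Neurod1 was at 4.08, 4.12 and 4.28 at day 0 and at 0.87, 0.86 and 0.83 at day 4.

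Relative to unrescued si-Rsl24d1 cells, the day effect was more positive for Shisal2b (1.52), Anxa8 (1.36), Cd55 (1.25) and Gm6763 (1.23). The call of Shisal2b was lost without the second day 0 (1.45) or the first day 4 library of rescued cells (1.38), or the third day 0 library of unrescued cells (1.42). It was more negative for Ndufa4l2, a mitochondrial protein gene induced by low oxygen (-1.58), the aldolase gene Aldoc (-1.19), Phlda2 (-1.17) and Mymx, a muscle cell fusion gene (-1.12). Phlda2 fell by 1.83 with rescue and was at -0.65, not called, without.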

How the results depend on the processing

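Among named genes, no change or difference that was called in the main or the alternative run reversed its direction. Sign changes of values called in neither run were not counted. Without a fold change threshold, 9562 genes were called between the days (5325 higher, 4237 lower), 1637 against rescued si-CTL cells and 961 against unrescued si-Rsl24d1 cells. With 0.1 added to TPM, 523 were called against rescued si-CTL cells and 3633 between the days, and with 2 added, 67 against unrescued si-Rsl24d1 cells. The other alternatives gave counts within 1.5 times of 2452, 346 and 115. Leaving out 1 library gave 2410 to 2512, 323 to 372 and 103 to 130, where leaving out control libraries was added after seeing the data. With the replicate block the counts were 2453, 341 and 111. Libraries with the same number deviated together with correlations of 0.0728, 0.0769 and -0.0055, and those with different numbers with -0.1426 to 0.0692. These values do not settle whether the numbers pair the libraries. Among named genes the block ended 1 call, the difference of Sprr2a2 from rescued si-CTL cells (0.90). Under median of ratios scaling the share of higher calls was 55.3% between the days and 37.1% against rescued si-CTL cells, instead of 62.6% and 29.8%. For named genes, 28 of 2371 comparisons of day effects lost a call and 9 gained one, and 45 of 929 lost a called difference. Of 896 recomputed counts of list members called, 78 moved by over 1.5 times, 45 of them without a fold change threshold. With 0.1 added to TPM, 8 instead of 5 primitive streak and mesoderm genes were called lower, and 5 instead of 3 trophectoderm and 4 instead of 2 cell cycle genes higher. The depth is unknown, so what read number limits could not be examined.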

Other observations

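Genes of glycolysis and glucose transport went in both directions between day 0 and day 4 of rescued si-Rsl24d1 cells, with 4 of 22 called higher and 5 lower (median -0.14), or 2 higher and 6 lower under median of ratios scaling. Over all tested genes, 9.34% were called higher and 5.57% lower. Ldhb, the lactate dehydrogenase subunit of oxidative tissues, was at 7.39, 7.37 and 7.30 and then at 8.83, 8.72 and 8.80 (log2 fold change 1.43), and the hexokinase gene Hk1 rose by 0.95. Ldha, the other lactate dehydrogenase subunit, was at 10.20, 10.21 and 10.26 and then at 9.01, 8.90 and 9.08 (-1.23). Pgam1, phosphoglycerate mutase, fell by 1.30 and Slc16a3, a lactate exporter, by 1.17. Of 15 transcripts of the mitochondrial genome, 1 was called higher and none lower (median 0.23), and the call of mt-Co1 (0.86) was lost without the first or the second day 0 library (0.82 each), without the third day 4 library (0.84) and under median of ratios scaling (0.78).

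A few genes known to respond to low oxygen had a day effect that was lower with than without rescue. They were named after their values were seen and got no test as a group. Ndufa4l2 was at 3.58, 3.38 and 3.19 at day 0 and at 1.01, 0.76 and 1.13 at day 4 (-2.42), against -0.84 without rescue. The mitophagy receptor gene Bnip3 was at 0.34 with and 1.41 without rescue, a difference of -1.06 (SE 0.14, adjusted p = 5.7e-05, limma). The prolyl hydroxylase gene Egln3 was at -0.15 with and 0.87 without rescue, a difference of -1.02 (SE 0.14, adjusted p = 1.0e-04, limma).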
